A study of Homo sapiens with 6 samples.

Results

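The aminoacyl-tRNA synthetases were examined in U87MG cells, an established human glioblastoma line, with and without RSL3. RSL3 inhibits GPX4, the enzyme that detoxifies lipid hydroperoxides, and starts ferroptosis, an iron-dependent form of cell death. A set of 34 synthetase genes was taken from a fixed list of symbols, with 19 enzymes of the cytosol and 15 of the mitochondria, and all 34 were found among the 65988 gene identifiers of each library. The cells were wild type; 3 control libraries came from cells given vehicle and 3 from cells given RSL3 at 2 µM, with no time of exposure in the labels. The series asked which factors alter the sensitivity of these cells to ferroptosis. The labels do not say whether the libraries of a group came from separate cultures, so the p-values measure only the spread between these libraries, which may be technical. In bulk RNA, fewer cells of a type and less RNA per cell cannot be told apart.

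Except for the bifunctional EPRS1, each synthetase joins 1 amino acid to its tRNAs, the step at which the genetic code is read into protein. The cytosolic enzymes serve translation of nuclear mRNA, and a group of them is held with the scaffold proteins AIMP1, AIMP2 and EEF1E1 in the multisynthetase complex. The mitochondrial enzymes are also encoded in the nucleus but serve translation of the respiratory chain subunits made inside the organelle. Many cytosolic synthetase genes are known targets of ATF4, the transcription factor of the integrated stress response, which acts when amino acids or protein folding fail.

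Total counts ranged from 27813462 to 43306335 per library. The glioblastoma markers VIM and CD44 were abundant, with at least 15961 raw counts in every library, and VIM, CD44 and CHI3L1 fell with RSL3. The other markers of this list did not fall together with them: GFAP (log2 fold change 0.40) and OLIG2 (0.13) were higher in every RSL3 library and NES (0.25) overlapped, all 3 uncalled, and S100B and SOX2 had at most 2 raw counts. Of the markers of other cell types, PTPRC (leukocytes), PECAM1 (endothelium) and CDH1 (epithelium) had at most 10 raw counts, EPCAM (epithelium) had 2 to 23 and ALB (hepatocytes) 9 to 31. ALB was lower in every RSL3 library but was not called (log2 fold change -0.84, edgeR adjusted p = 0.0994). The part of these marker shifts in the synthetase values was not tested.

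Of the 34 genes, 31 passed the filter on low counts and were tested, 18 cytosolic and 13 mitochondrial. The valyl-tRNA synthetases VARS1, with 0 to 8 raw counts, and VARS2, with 0 to 2, were not tested. In the exons of VARS1 every 64-base word also occurs on alternate contigs of GRCh38, and in VARS2 98.7% do. CARS1, the cytosolic cysteinyl-tRNA synthetase, had 88.5% of its words copied and only 37 to 68 raw counts; it was tested but is given no level here. The mitochondrial seryl-tRNA synthetase SARS2 had 4 to 13 raw counts and was not tested, and 48.2% of its exon bases lie in an overlapping gene, ENSG00000269547, which itself had 0 to 1. Whether copies and overlaps took these reads was not tested.

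Levels were compared between genes per kilobase, as CPM (counts relative to the normalized library total) in control cells, for the 30 members that were tested, CARS1 left out. On the length of the canonical transcript, the median level was 116 over 17 cytosolic genes, with a range from 8.86 to 579. Over 13 mitochondrial genes the median was 8.88, with a range from 3.24 to 151. Cytosolic synthetase mRNAs were thus the more abundant, by 13.1-fold between the medians, or 10.2-fold on the length of all annotated exons.

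GARS1, the glycyl-tRNA synthetase of both compartments, stood highest on transcript length at 579 ± 10.5 (SD, n = 3), followed by WARS1, the tryptophanyl enzyme, at 424 ± 7.46 and SARS1, the seryl enzyme, at 321 ± 6.26. These neighbours lie further apart than their spread. The order is not fixed, because on exon length WARS1 led at 176 ± 3.10 and GARS1 was in place 5 at 81.3 ± 1.47. Among mitochondrial genes, the cysteinyl enzyme CARS2 led on transcript length at 151 ± 0.475, whereas the isoleucyl enzyme IARS2 led on exon length at 44.9 ± 1.14. YARS1 at 199.9 ± 3.50 and NARS1 at 199 ± 7.74, the tyrosyl and asparaginyl enzymes, did not differ beyond their spread on transcript length. FARSB, the beta subunit of the phenylalanyl enzyme, was the lowest cytosolic gene on transcript length at 8.86 ± 0.288. On that length it did not differ beyond its spread from LARS2, the mitochondrial leucyl enzyme, at 8.88 ± 0.183. On exon length the lowest cytosolic gene was instead HARS1, the histidyl enzyme, at 5.05 ± 0.158. There FARSB, at 8.86 ± 0.288, stood above LARS2, at 3.42 ± 0.0706.

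**Figure D1:**
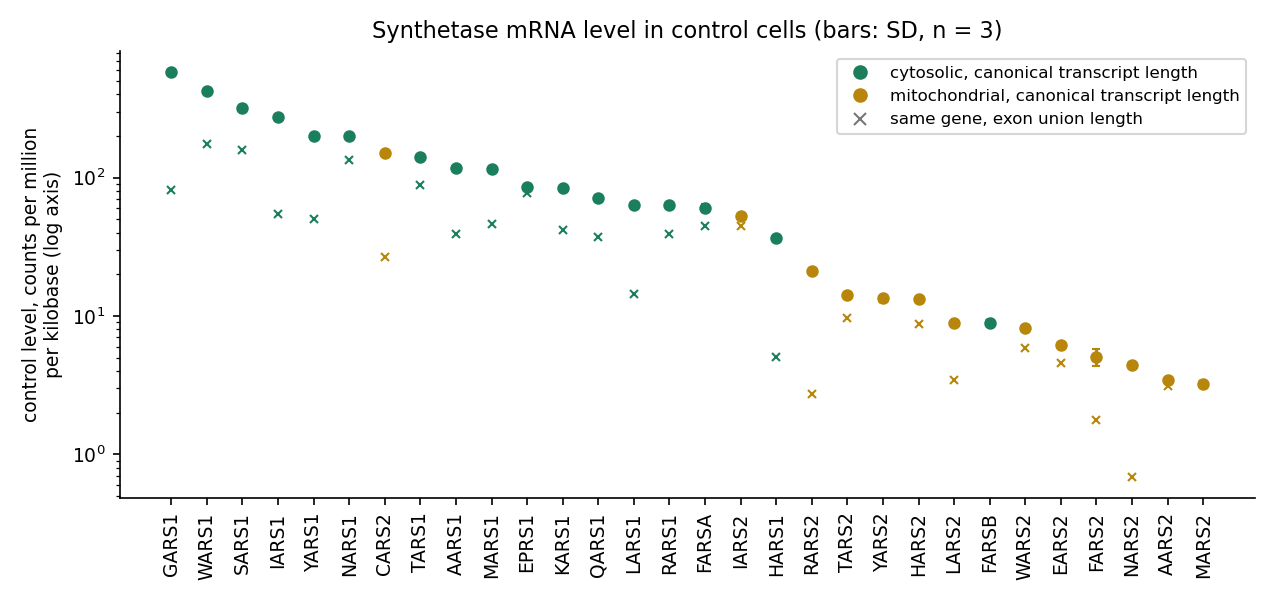
Control level of 30 synthetase genes in CPM per kilobase on a log axis, ordered by level on canonical transcript length (circles, mean and SD, n = 3) with the value on exon union length as crosses. Cytosolic genes (green) fill most of the upper places, with CARS2 and IARS2 the highest mitochondrial genes (ochre).

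RSL3 moved the cytosolic and mitochondrial synthetases by small amounts. The median absolute log2 fold change was 0.066 over the synthetases tested, against 0.136 over all genes tested. The genes were not matched for level, here or in the shares called below, so genes with few counts are among all genes. Of 31 genes tested, 10 were called at an adjusted p under 0.05 with edgeR's quasi-likelihood test, 5 higher and 5 lower, and their changes ran from 16.1% lower to 13.3% higher. All 5 that rose were in the cytosolic list, namely MARS1, HARS1, GARS1, FARSA and NARS1. GARS1 serves both compartments, so the glycyl enzyme of the mitochondria is counted among them. The 5 that fell were the cytosolic QARS1 and SARS1 and the mitochondrial CARS2, IARS2 and WARS2. Over all 16105 genes tested, 25.6% were called, 12.9% higher and 12.7% lower, so the share of synthetases called, 32.3%, lies near that of all genes. Within the cytosolic set 7 of 18 were called (38.9%), and within the mitochondrial set 3 of 13 (23.1%), with 0 higher. Without CARS1, whose change cannot be read, 7 of 17 cytosolic genes were called (41.2%), with a median log2 fold change of 0.039. The median log2 fold change was 0.04 over the cytosolic genes and -0.04 over the mitochondrial genes, against -0.0044 over all genes. The mitochondrial median was -0.10 without RSL3 1 and -0.0099 without RSL3 2, and -0.06 without control 2, and the cytosolic median was 0.06 with GC offsets. In all 10 called genes the control and RSL3 libraries did not overlap. Groups without overlap are common in these data, with 19.3% of all genes higher and 19.3% lower in every RSL3 library.

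**Figure D2:**
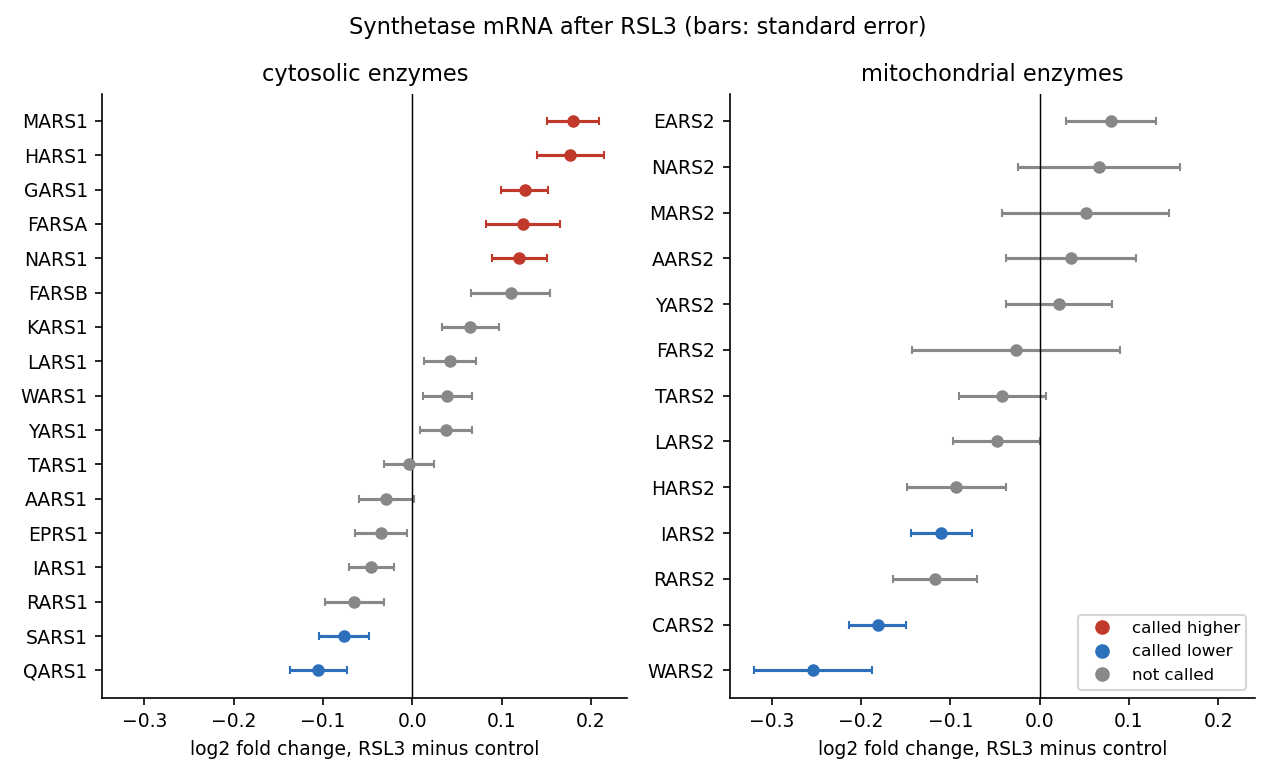
Log2 fold change of RSL3 minus control for 17 cytosolic (left) and 13 mitochondrial (right) synthetase genes, with the standard error as bars. Red genes were called higher, blue lower and grey not called. Every red gene is in the cytosolic list, which includes GARS1 of both compartments, and WARS2 has the lowest value at -0.25.

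MARS1, the methionyl-tRNA synthetase of the multisynthetase complex (chr12:57475445-57517569, GRCh38, GENCODE v44), had 11244, 11195 and 10833 normalized counts in the control libraries and 12599, 12664.5 and 12426 with RSL3. Every RSL3 library lay above every control library. The log2 fold change was 0.18 (SE 0.029), with an adjusted p of 7.39e-05 by edgeR. Of its exon bases, 13.3% are shared with neighbours, among them DDIT3, a stress response gene that was not called (log2 fold change 0.04, edgeR adjusted p = 0.61).

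HARS1, the histidyl-tRNA synthetase of the cytosol (chr5:140673035-140691537), had 2527, 2411 and 2383 normalized counts in control and 2737, 2786 and 2757 with RSL3. The RSL3 libraries were all higher and stood close together. The log2 fold change was 0.18 (SE 0.037, edgeR adjusted p = 0.00123). GARS1 (chr7:30580533-30634033) had 48364, 48919 and 47211 in control and 53299, 53143 and 51223 with RSL3, again without overlap. Its log2 fold change was 0.13 (SE 0.026, edgeR adjusted p = 0.00109).

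NARS1 (chr18:57600656-57622213) had 18558, 19568 and 18152 normalized counts in control and 20337, 20704 and 20099.7 with RSL3. The lowest RSL3 library lay just above the highest control library. The log2 fold change was 0.12 (SE 0.030, edgeR adjusted p = 0.00548). FARSA, the alpha subunit of the phenylalanyl enzyme (chr19:12922479-12934037), had 3896, 3836 and 3439 in control and 4121, 3977 and 4076 with RSL3. Its groups were separate although control 3 lay well below the other controls, and the log2 fold change was 0.12 (SE 0.041, edgeR adjusted p = 0.0307). The call was lost without control 3 (log2 fold change 0.07, edgeR adjusted p = 0.191), without RSL3 1 (0.11, adjusted p = 0.107) or RSL3 3 (0.12, adjusted p = 0.0528), and with GC offsets (adjusted p = 0.0932). FARSB, which forms the same enzyme with FARSA, was the uncalled cytosolic gene of largest change, with means of 2043 ± 66.4 and 2209 ± 123 (SD, n = 3) and a log2 fold change of 0.11 (SE 0.045, edgeR adjusted p = 0.0765). It was 0.07 without RSL3 2 (edgeR adjusted p = 0.378), and it was called without RSL3 3 (0.15, adjusted p = 0.0188) and with GC offsets (0.14, adjusted p = 0.0213).

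The cytosolic genes that fell did so by less. QARS1, the glutaminyl-tRNA synthetase of the complex (chr3:49095932-49105130), had 6059, 5755 and 6000.0 normalized counts in control and 5527, 5491 and 5551 with RSL3. All RSL3 libraries were lower, and the log2 fold change was -0.11 (SE 0.032, edgeR adjusted p = 0.018). SARS1 (chr1:109213918-109238182) had 21130, 21295 and 20519.6 in control and 20267, 19819.9 and 19610.1 with RSL3. The groups did not overlap, but the log2 fold change of -0.08 (SE 0.028) reached an edgeR adjusted p of only 0.0495, and the call was lost in 10 of 17 refits, among them those without control 1 or 2 and without any of the RSL3 libraries (edgeR adjusted p from 0.0698 to 0.172). QARS1 lost its call without control 1 or 3 and without RSL3 1 or 2 (edgeR adjusted p from 0.0577 to 0.0759).

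Among the complex enzymes, 2 of 7 were called, MARS1 higher and QARS1 lower, and the other 5 (EPRS1, IARS1, KARS1, LARS1 and RARS1) were not. Of the 11 free cytosolic enzymes tested, 5 were called, 4 higher and 1 lower. By the structural class of the catalytic domain, 5 of 9 class II cytosolic genes were called (FARSA, GARS1, HARS1 and NARS1 higher, SARS1 lower), against 2 of 8 of class I; the bifunctional EPRS1 is in neither list. Beside the 25.6% called among all genes, the shares were 28.6% for the complex, 45.5% for the free enzymes, 55.6% for class II and 25% for class I, so those of the complex and of class I lie at the background. The 5 called free enzymes are the same genes as the 5 called of class II. The 2 called of the complex are likewise the 2 called of class I, so the 2 divisions are not separate results. CARS1, whose change cannot be read, counts as not called among the free enzymes and in class I. These counts were not tested against each other.

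The uncalled cytosolic genes had log2 fold changes between -0.06 and 0.11. KARS1, the lysyl enzyme of both compartments, had means of 5745 and 6009 normalized counts, and its RSL3 libraries were all higher (log2 fold change 0.07, edgeR adjusted p = 0.15). IARS1 had means of 41693 and 40392 and RARS1 of 4559 and 4359, and in both the RSL3 libraries were all lower. In AARS1, EPRS1, LARS1, TARS1, WARS1 and YARS1 the groups overlapped.

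**Figure D3:**
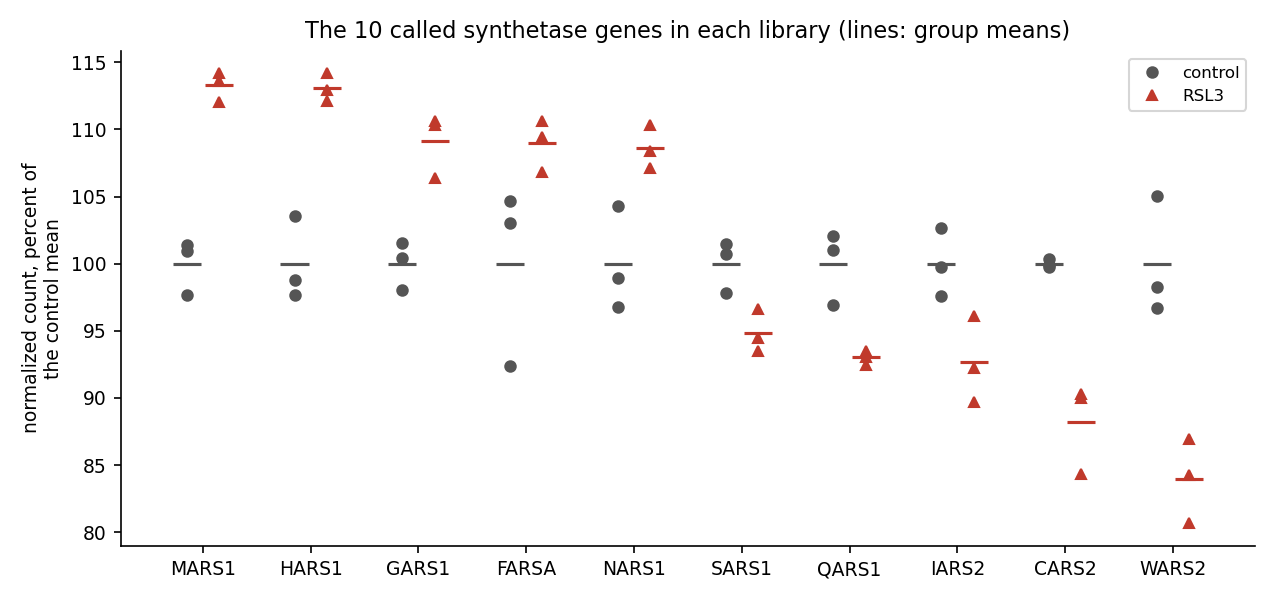
Normalized count of the 10 called synthetase genes in each library, as percent of the gene's control mean (circles control, triangles RSL3, lines group means). In MARS1 to NARS1 all RSL3 libraries lie above the controls, and in SARS1 to WARS2 below them.

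The mitochondrial genes held the largest decreases. WARS2, the mitochondrial tryptophanyl enzyme (chr1:119031216-119140654), had 759.6, 747 and 812 normalized counts in control and 672, 624 and 651 with RSL3. All RSL3 libraries were lower. The log2 fold change was -0.25 (SE 0.066, edgeR adjusted p = 0.00656), the largest change of any member.

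CARS2 (chr13:110641412-110713603), which also makes persulfidated cysteine, had 9484, 9529 and 9472 normalized counts in control and 8573, 8008 and 8544 with RSL3. The controls lay within a narrow band and every RSL3 library lay below it. The log2 fold change was -0.18 (SE 0.032, edgeR adjusted p = 0.00019). IARS2 (chr1:220094132-220148041) had 6503, 6319.7 and 6181 in control and 5843, 6090.1 and 5682 with RSL3, without overlap. Its log2 fold change was -0.11 (SE 0.034, edgeR adjusted p = 0.0203), and the call was lost without control 1, RSL3 1 or RSL3 3 (edgeR adjusted p from 0.072 to 0.107) and with GC offsets (adjusted p = 0.0934).

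The other 10 mitochondrial genes tested were not called, with log2 fold changes from -0.12 to 0.08. RARS2, the arginyl enzyme, had the largest of these, with means of 1630 ± 31.7 and 1503 ± 79.96 (SD, n = 3), a log2 fold change of -0.12 (SE 0.047) and an edgeR adjusted p of 0.0754, and all RSL3 libraries were lower. EARS2, the glutamyl enzyme, had means of 1087 and 1149 and was the only mitochondrial gene with all RSL3 libraries higher. In AARS2, FARS2, HARS2, LARS2, MARS2, NARS2, TARS2 and YARS2 the groups overlapped. Over all 13 mitochondrial genes tested, the coefficient of variation between replicates had a median of 4.13%, against 1.93% over the 18 cytosolic genes.

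For 13 pairs of a cytosolic and a mitochondrial enzyme for the same amino acid, the log2 ratio of their normalized counts was compared in each library. With 3 libraries against 3, an exact two-sided permutation test cannot go below a p of 0.1, so these ratios are described without a test. For tryptophan, WARS1/WARS2 was 5.65, 5.70 and 5.53 in control and 5.86, 6.02 and 5.88 with RSL3, higher in every RSL3 library, with a shift of 0.29. For histidine, HARS1/HARS2 was 1.20, 1.10 and 1.09 in control and 1.36, 1.52 and 1.33 with RSL3, also without overlap, with a shift of 0.27. These were the only pairs with ratios higher in all RSL3 libraries, and the shift for tryptophan came mostly from WARS2 (log2 fold change -0.25) rather than WARS1 (0.04). For glutamate, EPRS1/EARS2 was 3.65, 3.73 and 3.70 in control and 3.59, 3.57 and 3.58 with RSL3, lower in every RSL3 library. EPRS1 is bifunctional, so its count does not serve glutamate alone. The other 10 pairs overlapped. Of all single genes tested, 19.3% were higher and 19.3% lower in every RSL3 library. No such share was computed for ratios of other gene pairs. The shift was above 0 in 11 of 13 pairs, with a median of 0.06; FARS2 serves in 2 of the pairs.

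**Figure D4:**
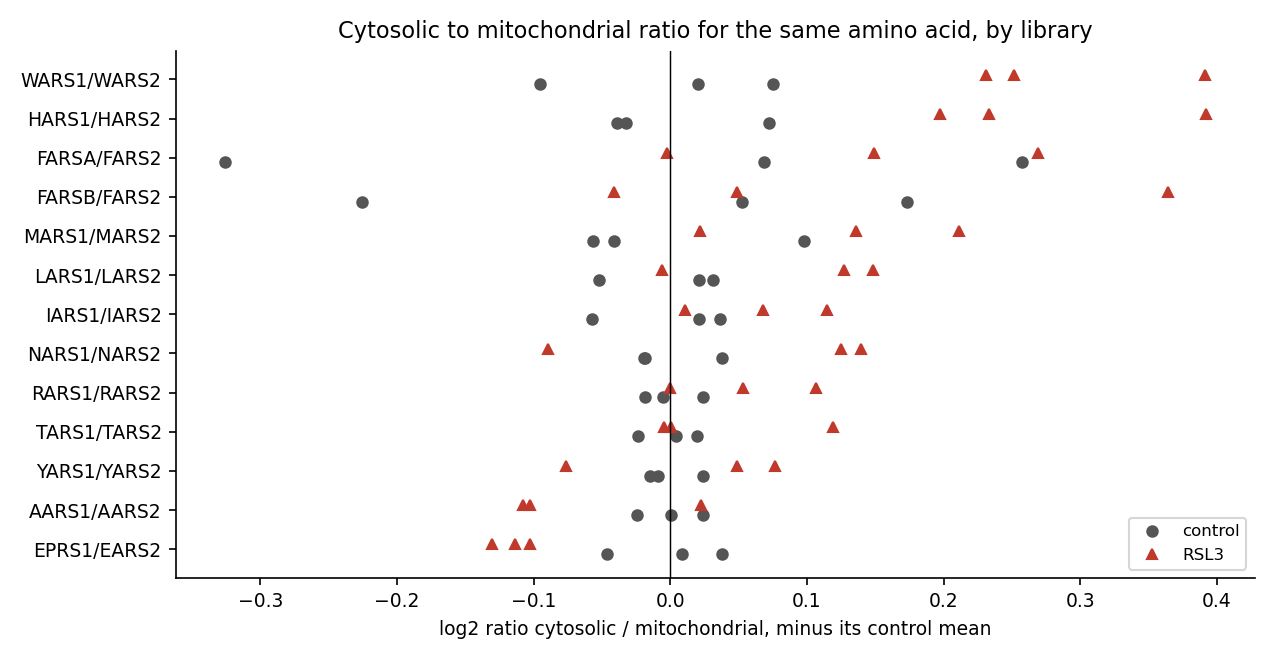
Log2 ratio of cytosolic to mitochondrial normalized counts for 13 pairs, minus the pair's control mean, with 1 point per library (circles control, triangles RSL3). Only WARS1/WARS2 and HARS1/HARS2 have all RSL3 points to the right of all controls, and only EPRS1/EARS2 to the left.

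HARS1 and HARS2 lie head to head on chromosome 5, with RefSeq starts at 140691370 and 140691455 and 84 bases between them (GRCh38.p14). In GENCODE v44 the genes overlap, as HARS1 reaches 140691537 and HARS2 begins at 140691430. Of the exon bases, 8.46% in HARS1 and 6.99% in HARS2 are shared with neighbours. These are WDR55, DND1 and HARS2 for HARS1, and ZMAT2 and HARS1 for HARS2. HARS1 rose, whereas HARS2 had means of 1115 ± 14.9 and 1045 ± 66.4 (SD, n = 3) with overlapping groups (log2 fold change -0.09, SE 0.055, edgeR adjusted p = 0.245).

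Summed over each compartment, the cytosolic synthetases took 7906, 8089 and 7833 CPM in control and 8173, 8213 and 8031 with RSL3, 2.47% more with overlapping groups. The mitochondrial synthetases took 758, 755 and 751 in control and 718, 687 and 695 with RSL3, a change of -7.26% and lower in every RSL3 library. The ratio of the sums was 10.4, 10.7 and 10.4 in control and 11.4, 11.9 and 11.6 with RSL3, 10.5% higher without overlap. GARS1 and KARS1, which serve both compartments, count only in the cytosolic sum, and GARS1 has the most counts of all members. No sum without these genes was made. The mitochondrial sum leans on CARS2, the mitochondrial member with the most counts. Without CARS2 it was 480.2, 476 and 474 in control and 466, 453 and 445 with RSL3, a change of -4.62%, and the ratio was 7.46% higher, in both cases still without overlap.

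**Figure D5:**
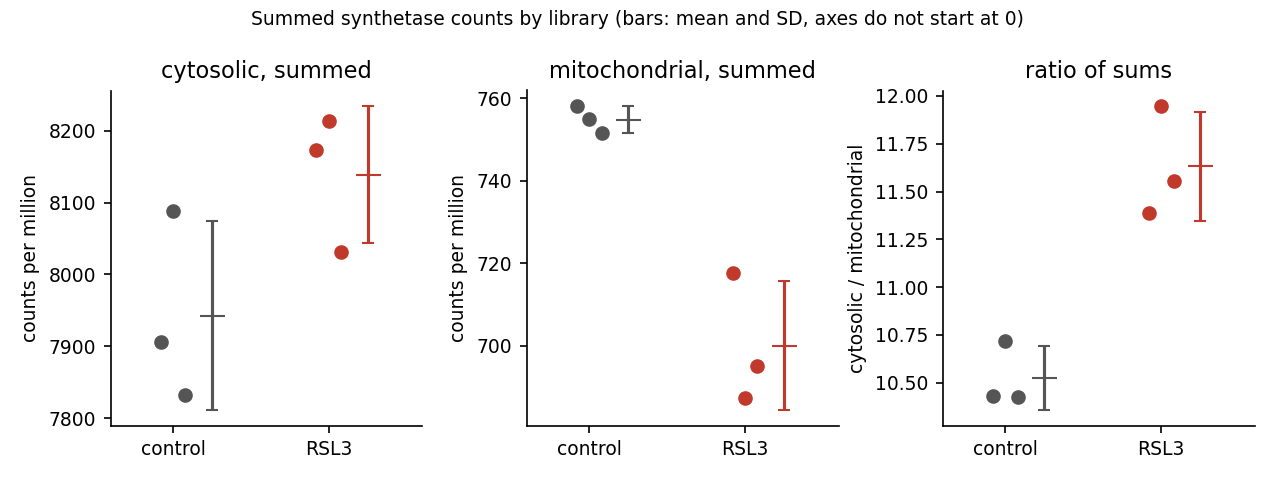
Summed synthetase CPM in each library for the cytosolic and the mitochondrial genes, and their ratio (points libraries, bars mean and SD, n = 3 per group, axes not from 0). The mitochondrial sum is lower and the ratio higher in all RSL3 libraries, whereas the cytosolic sums overlap.

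The C/EBP-ATF response element, through which ATF4 binds, was searched as TGATGCAA on both strands of RefSeq promoter windows (GRCh38.p14), 250 bases before to 50 after each start. A window was found for 29 of the 34 members. Counted by window, since some members have 2, the motif stood in 6 of 21 cytosolic and 0 of 17 mitochondrial windows, and in 0.676% of 22198 windows of protein-coding genes. The 6 windows belong to 6 of the 16 cytosolic members with a window. The wider form TGATGNAA stood also in GARS1 and YARS2, and in 2.694% of those windows. The 8 matches are shown to compare the motif and its flanks between members, each in 30 bases with the motif in capitals:
AARS1 (chr16:70289675-70289704, plus strand): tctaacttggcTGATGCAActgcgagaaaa
CARS1 (chr11:3057407-3057436, plus strand): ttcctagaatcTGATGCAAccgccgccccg
IARS1 (chr9:92293692-92293721, plus strand): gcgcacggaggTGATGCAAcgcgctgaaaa
MARS1 (chr12:57488053-57488082, minus strand): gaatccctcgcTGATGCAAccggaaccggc
NARS1 (chr18:57621804-57621833, minus strand): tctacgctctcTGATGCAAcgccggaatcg
TARS1 (chr5:33440956-33440985, minus strand): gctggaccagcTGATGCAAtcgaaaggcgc
GARS1 (chr7:30594834-30594863, minus strand): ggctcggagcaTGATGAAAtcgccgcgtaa
YARS2 (chr12:32756076-32756105, minus strand): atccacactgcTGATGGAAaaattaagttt

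A match describes these letters and is not a binding site. Of the 5 members with TGATGCAA whose counts can be read, MARS1 and NARS1 rose and AARS1, IARS1 and TARS1 were not called. HARS1 and FARSA rose without a match in their windows. Among 12 cytosolic synthetases listed from general knowledge as ATF4 targets, 4 were called, 3 higher (GARS1, MARS1 and NARS1) and 1 lower (SARS1), and among the 6 other cytosolic genes tested 3 were called, 2 higher and 1 lower. These are 33.3% and 50% called in either direction, against 25.6% of all genes. By direction, 3 of the 12 ATF4-listed genes were higher, beside 12.9% of all genes, and 1 of 12 lower, beside 12.7%. CARS1, whose change cannot be read, is 1 of the 12. Whether the ATF4-listed genes differ from all genes was not tested.

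The genes of the integrated stress response did not move 1 way. Of 18 listed, 12 were called (66.7%, against 25.6% of all genes), 6 higher and 6 lower, with a median log2 fold change of -0.03. ATF5, a transcription factor of the response, had 4849, 4564 and 4636 normalized counts in control and 6221, 5947 and 5995 with RSL3 (log2 fold change 0.37, edgeR adjusted p = 4.81e-08). All its RSL3 libraries were higher. PPP1R15A, which restores eIF2 function by directing its phosphatase, rose by 0.37 (edgeR adjusted p = 1.79e-07), and CHAC1, which degrades glutathione, rose by 0.34 (edgeR adjusted p = 2.41e-06). SHMT2, TRIB3 and CEBPB also rose. ATF4 mRNA itself fell by 0.13 (edgeR adjusted p = 0.00121), from 28993, 28133 and 27775 to 26262.5, 25744 and 25651, and all RSL3 libraries were lower. The counts give its mRNA only, and ATF4 protein was not measured in these libraries. PHGDH and PSAT1, enzymes of serine synthesis, SESN2, DDIT4 and the kinase EIF2AK3 also fell. ASNS, the asparagine synthetase and a classic ATF4 target, was not called (log2 fold change -0.05, edgeR adjusted p = 0.286).

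Of the genes that work beside the synthetases, AIMP1 rose by 0.13 (edgeR adjusted p = 0.0185), and AIMP2 and EEF1E1 were not called although their RSL3 libraries were all higher. In the list of tRNA export, delivery and editing, 3 of 11 tested were called, 27.3% against 25.6% of all genes. The 11 include EEF1D, with means of 47.0 and 50.6 normalized counts, whose exon words all occur on an alternate contig as well. EEF1A2, an elongation factor that delivers charged tRNA to the ribosome, had 209.96, 286 and 227 normalized counts in control and 439, 479 and 387 with RSL3 (log2 fold change 0.87, SE 0.11, edgeR adjusted p = 6.49e-06). It was the largest change in these partner lists, whereas the far more abundant EEF1A1 was not called (log2 fold change -0.04, edgeR adjusted p = 0.233). PTRH2, a peptidyl-tRNA hydrolase, rose by 0.18 (edgeR adjusted p = 0.0177), and DTD1, which removes D-amino acids from tRNA, fell by 0.14 (edgeR adjusted p = 0.0303). EEF1G was at 0 counts in every library, and 99.7% of its exon bases are shared with an overlapping gene, ENSG00000255508, so no level can be read from it.

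Among 15 partners of mitochondrial translation, 2 were called. GFM2, which recycles mitochondrial ribosomes, had 1420.1, 1465 and 1414 normalized counts in control and 1719.9, 1713 and 1757 with RSL3 (log2 fold change 0.27, SE 0.043, edgeR adjusted p = 6.11e-05). ELAC2, which trims the ends of precursor tRNAs, fell by 0.17 (edgeR adjusted p = 0.0111), and all its RSL3 libraries were lower. The other 13, the elongation factors TUFM, TSFM and GFM1 among them, were not called, and 13.3% called is below the 25.6% of all genes.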

How the data were processed

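RNA of U87MG cells was sequenced in read pairs. The deposited values are raw counts per Ensembl gene, which the authors made with Trimmomatic 0.36, HISAT2 and HTSeq 0.6.1p1 on GRCh38.p4, without strand; the annotation release is not given in the sources used here. Genes were kept by filterByExpr (minimum count 10), scaled by TMM and tested with edgeR 4.0.16 in R 4.3.3 (quasi-likelihood F test, Benjamini-Hochberg over 16105 genes, adjusted p under 0.05, no covariates). Normalized counts are scaled to the mean library size of 34118585. The members and lists were chosen with earlier results of these data known. Called members are named with all 6 libraries, other members by group means and the largest uncalled change per compartment, and partners by smallest p. Shared exons and copied 64-base words were computed from GENCODE v44. Alternatives were other scalings, filters, thresholds, DESeq2 1.42.0 with sva 3.50.0, GC offsets, the replicate block and each library left out. The scripts were tested on simulated data.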

Additional observations from a re-analysis of the deposited data

How the results depend on the processing

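GARS1, HARS1, MARS1, NARS1 and CARS2 kept their calls in all 17 refits of the model, and WARS2 in 16, losing it in DESeq2 with 2 surrogate variables (adjusted p = 0.0633). FARSA, QARS1 and IARS2 were called in 12 and SARS1 in 7, and no called member changed direction. The cytosolic genes called lower, 2 as reported, were 1 with RLE size factors, 1 without a filter on low counts, 1 with at least 10 counts in every library, 1 with GC offsets and 0 in DESeq2 with 2 surrogate variables, and 0 to 1 when a library was left out. The mitochondrial genes called lower, 3 as reported, were 1 in DESeq2 with 2 surrogate variables, and the cytosolic genes called higher, 5 as reported, were 8 with the replicate block and GC offsets together. At an adjusted p under 0.01 the cytosolic genes called lower were 0. With a further floor of 0.2 on the size of the log2 fold change, the cytosolic genes called were 0 higher and 0 lower, the mitochondrial genes called lower 1 and the partner genes called 6, against 18. Over all genes, 4123 calls became 2453 with 2 surrogate variables in DESeq2, 2691 at an adjusted p under 0.01 and 2519 with the fold floor. The cause of these shifts was not tested.

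No label says what the replicate numbers pair. Same-numbered libraries had correlations of 0.022, 0.027 and 0.074 in their deviations from the group means, against -0.051 to 0.024 for differently numbered ones. RSL3 1 correlated slightly better with control 2 (0.02425) than with control 1 (0.02224). Whether the numbers mark a pairing was not tested. With the replicate number as a block, 11 members were called in place of 10, FARSB being added at an adjusted p of 0.0496, and 4633 genes in all. The planned sum over several identifiers of 1 symbol was not run, as each member has 1 identifier. Low counts limit VARS1, VARS2, SARS2 and CARS1, for which no change can be read here. Whether copied or overlapping exons took their reads was not tested.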
